A study of Mus musculus with 10 samples.

Results

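The data described here are the side changes of gene expression in sorted renin cells, and how far those of mice with a narrowed aorta differed from those of sham mice. A side change is log2 of the level in the right kidney minus that in the left kidney of the same mouse. The difference of side changes is the side change of the coarctation mice minus that of the sham mice, as fitted by the model described below. A negative value means that the right kidney was lower relative to the left after coarctation than after sham surgery. All 10 libraries of the series entered the fit, 1 from each kidney of 3 coarctation mice and 2 sham mice, matched by the mouse number in the labels.

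All mice were C57BL/6, were 8 to 12 weeks old and carried Ren1c-YFP, a reporter in which renin regulatory sequence drives yellow fluorescent protein. Cells were taken 72 h after surgery. In coarctation the aorta was narrowed between the origins of both renal arteries, whereas in sham mice the aorta was neither exposed nor narrowed, so that effects of exposing and of narrowing the aorta cannot be told apart. Living YFP-positive cells from the cortex of each kidney were pooled into 1 library, so that the sort itself rests on the activity of renin regulatory sequence. The mice are named as biological replicates in the design text.

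Renin cells line the arterioles that feed the glomeruli and store renin, the protease that starts the angiotensin cascade, in granules derived from the secretory pathway. When perfusion pressure falls they release and make more renin, and when it is high they make less, so the cells work as a pressure sensor. Renin is a secreted glycoprotein, and its message is translated at the endoplasmic reticulum (ER), where chaperones fold the product before transport to the Golgi. Load on this compartment is read by the unfolded protein response (UPR), whose transcription factors act on the promoters of ER chaperone genes. The comparison asks whether the change between kidneys on either side of the constriction went beyond the change between the kidneys of a sham mouse.

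The smallest p belonged to renin itself. Ren1 and the ER chaperone genes Manf and Hspa5 had lower side changes in every coarctation mouse than in either sham mouse. The same held for 10.1% of all tested genes. Genes named by p, such as Manf and Hspa5, were chosen among those whose groups did not overlap, so for them this is a description. Of 15 markers of intercalated cells, the acid-secreting cells of the collecting duct, 8 had higher ones in every coarctation mouse than in either sham mouse. That is 53.3%, against 10.3% of all tested genes. The whole list was settled with earlier results of these data known, in which these cells had moved, so the share is a description. Of the 8 genes, Spink8 was listed with its value known. None of the 18825 genes tested, or 0%, passed an adjusted p of 0.05 in edgeR's quasi-likelihood test with the mouse as a block, and the smallest adjusted p (Benjamini-Hochberg) was 0.181, for Ren1. At an unadjusted p under 0.05 there were 395 genes with a higher difference (2.1%) and 387 with a lower one (2.06%). DESeq2 on the same design called 62 genes higher and 53 lower, and limma-voom called 0 genes. No gene below is therefore called, and its values are given as measured.

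A second description needs no model, namely whether the 3 coarctation side changes of a gene lay apart from the 2 sham ones. They lay entirely above in 1941 genes (10.3%) and entirely below in 1894 genes (10.1%), which is the background for every count of this kind. The exact permutation test of 3 against 2 values cannot go below a two-sided p of 0.2. Depth was 20029817 to 32006229 estimated counts per library. Over all tested genes the median difference was 0.05, and the median size of the side change was 0.71, 0.57 and 0.61 in coarctation mice 1, 2 and 3 and 0.56 and 0.54 in sham mice 1 and 2. The libraries of sham mouse 1 and of coarctation mouse 1 stood apart from the rest in a principal component analysis. Ranges given below for a list are those of its median over the 15 alternative settings, which include leaving out each mouse in turn.

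Renin and the genes that mark renin cells come first. Ren1 (ENSMUSG00000070645.5, chromosome 1, 133350510 to 133360325 on the plus strand of GRCm38) encodes renin. Its level in left and right kidneys was 29285 and 5451 TPM in coarctation mouse 1, 48620 and 11982 TPM in mouse 2, and 36877 and 10835 TPM in mouse 3. In sham mouse 1 the levels were 30521 and 21776 TPM, and in sham mouse 2 they were 43896 and 48591 TPM. The right kidneys of the 3 coarctation mice were below every other library, while their left kidneys lay within the range of the sham libraries in mice 1 and 3 and just above it in mouse 2. The side changes were -2.52, -2.17 and -1.998 in coarctation mice (mean -2.23 ± 0.27, SD, n = 3) and -0.57 and 0.15 in sham mice (mean -0.21 ± 0.51, SD, n = 2), with no overlap. The difference was -2.02 on the log2 scale (SE 0.21, a 4.06-fold lower ratio of right to left; adjusted p = 0.181 in edgeR). It ran from -2.38 without sham mouse 1 to -1.66 without sham mouse 2. In bulk libraries such as these, fewer renin cells among the sorted cells and less renin message per cell cannot be told apart.

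EYFP, the reporter transgene on which the sort was based, had 413, 959 and 369 TPM in left and 60.6, 174 and 164 TPM in right kidneys of coarctation mice 1, 2 and 3. In sham mice 1 and 2 it had 189 and 717 TPM in left and 176 and 979 TPM in right kidneys. All 3 coarctation mice were lower on the right by more than either sham mouse, and the difference was -2.43 (SE 0.47; adjusted p = 0.599 in edgeR). The reporter and the endogenous gene thus had differences of similar size.

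Akr1b7, an aldo-keto reductase made together with renin, had 3249, 6181 and 5503 TPM in left and 1246, 3405 and 3508 TPM in right kidneys of the coarctation mice. In sham mice the values were 2874 and 8252 TPM in left and 2245 and 9780 TPM in right kidneys. The 2 groups of side changes did not overlap, and the difference of -1.03 (SE 0.24; adjusted p = 1 in edgeR) was smaller than that of Ren1. Aldh7a1, an aldehyde dehydrogenase, had 324, 670 and 229 TPM in left and 49.5, 116 and 95.7 TPM in right kidneys after coarctation, against 281 and 514 TPM in left and 242 and 485 TPM in right kidneys after sham surgery. Its difference was -2.14 (SE 0.38; adjusted p = 0.537 in edgeR), and sham mice hardly differed between sides. Without coarctation mouse 3, whose side change of -1.49 was the smallest of the 3, Aldh7a1 passed in edgeR (difference -2.56, adjusted p = 0.0328), whereas over all settings its adjusted p ran from 7.24e-14 to 1.

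Kiss1, which encodes the precursor of kisspeptin, had the largest negative difference of the genes named by p. It had 33.1, 224 and 206 TPM in left but 0.116, 0.772 and 7.10 TPM in right kidneys of the coarctation mice. Sham mice had 145 and 258 TPM in left and 84.5 and 98.3 TPM in right kidneys. Every coarctation right kidney was below every other library, and sham kidneys were lower on the right too, so that the difference was -5.62 (SE 0.93; adjusted p = 0.494 in edgeR). Kiss1 overlaps the predicted gene Gm28040 on the same strand of chromosome 1, so its counts are uncertain.

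Of the 23 genes listed as marks of renin cell identity, 12 had a negative difference and 11 a positive one (median -0.09, against 0.05 for all genes), and none passed. The side changes of 6 members (26.1%, against 10.1% of all tested genes) lay entirely below those of sham mice. Those of 2 members (8.7%, against 10.3%) lay entirely above. Those below were Ren1, Kiss1, Aldh7a1, Akr1b7, the LIM-domain gene Crip1 (difference -0.49, SE 0.14) and Gja5, which encodes connexin 40 of the gap junctions between renin cells (-1.23, SE 0.47). The median turned positive without coarctation mouse 2 (0.06) or sham mouse 1 (0.07) and was -0.43 without sham mouse 2, with 15 of 23 members negative. Of the genes that renin cells share with smooth muscle, Acta2 and Myh11 differed little. Acta2, smooth muscle actin, had 1047, 1571 and 1802 TPM in left and 1163, 2915 and 2326 TPM in right kidneys after coarctation, and 843 and 1851 TPM in left and 1018 and 2312 TPM in right kidneys after sham surgery. Its level was higher on the right in all 5 mice, and the difference was 0.05 (SE 0.21). Myh11, the smooth muscle myosin heavy chain, had a difference of -0.23 (SE 0.29), and 14 of 21 contractile genes were negative (median -0.10, range -0.23 to 0.03). The side changes of 5 of the 21 (23.8%, against 10.1% of all tested genes) lay entirely below the sham ones. Those of 2 (9.52%, against 10.3%) lay entirely above. The signs of Acta2 and Myh11 each turned when 1 mouse was left out.

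**Figure D1:**
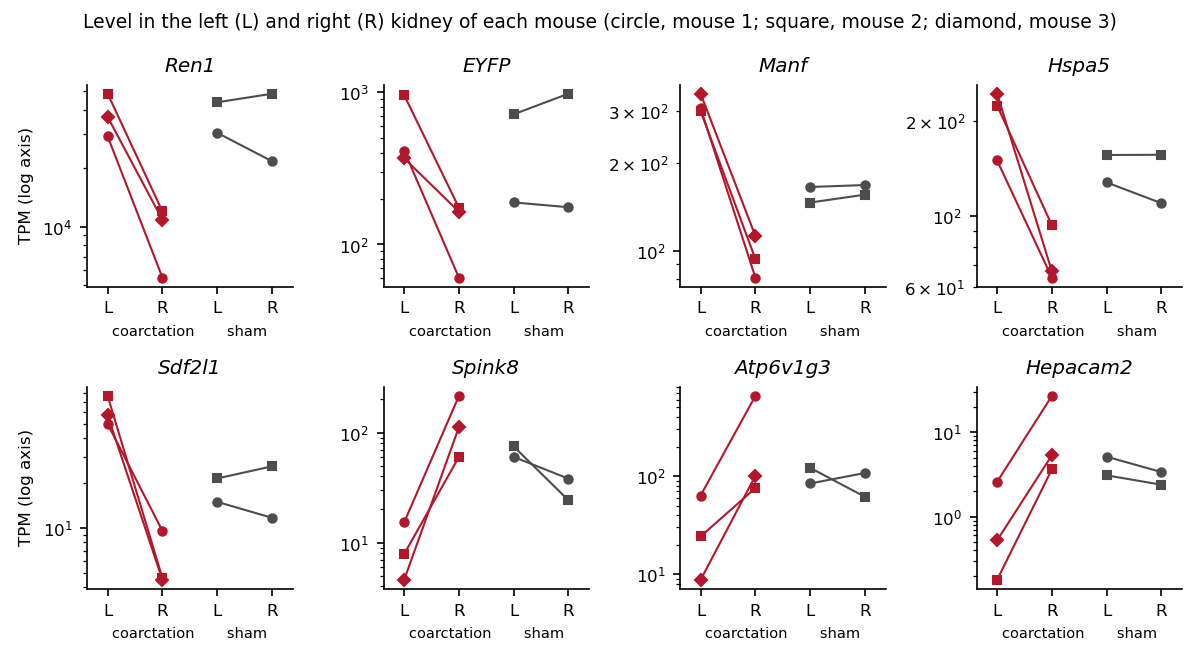
TPM (log axis) in the left (L) and right (R) kidney of each mouse for 8 genes, with a line joining the kidneys of a mouse, coarctation in red and sham in grey; circles, squares and diamonds are mice 1, 2 and 3. For Ren1, EYFP, Manf, Hspa5 and Sdf2l1 the red lines fall more steeply than either grey line, and for Spink8, Atp6v1g3 and Hepacam2 they rise while at most 1 grey line does.

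Chaperones of the ER had lower side changes after coarctation as a group. Of 26 listed members 23 had a negative difference (88.5%, against 47.8% of all tested genes), with a median of -0.47. The side changes of 11 members (42.3%, against 10.1% of all tested genes) lay entirely below the sham ones. Those of 0 members (against 10.3%) lay entirely above, and none passed over all genes. The 3 members with a positive difference were Dnajc10 (0.47, SE 0.53), Ero1l (0.91, SE 0.91) and Erp44 (0.51, SE 0.37).

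The promoters of these genes are shown first, because many ER chaperone genes carry a known element for the transcription factors of the unfolded protein response. This element, the ERSE, was searched on both strands as CCAAT, 9 bases of any kind, and CCACG, in the 250 bases before each RefSeq start (GRCm38.p6). The core CCACG alone, which is part of it, was in 36.8% of 13422 promoters of tested genes, and the whole ERSE in 20 of them (0.149%). The windows are chr2:34771840-34772089 on the plus strand for Hspa5, chr10:86705445-86705694 on the minus strand for Hsp90b1, chr16:17132384-17132633 on the minus strand for Sdf2l1, and chr1:133350424-133350673 on the plus strand for Ren1. Capitals mark the ERSE, and each sequence reads towards the start of the gene.
Hspa5: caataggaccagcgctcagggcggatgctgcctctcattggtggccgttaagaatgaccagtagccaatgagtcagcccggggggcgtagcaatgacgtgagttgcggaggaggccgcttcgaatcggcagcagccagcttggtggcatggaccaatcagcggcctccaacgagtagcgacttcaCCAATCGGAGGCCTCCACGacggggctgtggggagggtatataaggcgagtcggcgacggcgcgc
Hsp90b1: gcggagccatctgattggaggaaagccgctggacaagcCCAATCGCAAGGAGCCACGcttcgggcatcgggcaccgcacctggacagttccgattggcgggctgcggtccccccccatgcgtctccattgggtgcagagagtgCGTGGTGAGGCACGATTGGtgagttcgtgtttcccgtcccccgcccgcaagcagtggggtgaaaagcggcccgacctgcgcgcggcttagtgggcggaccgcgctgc
Sdf2l1: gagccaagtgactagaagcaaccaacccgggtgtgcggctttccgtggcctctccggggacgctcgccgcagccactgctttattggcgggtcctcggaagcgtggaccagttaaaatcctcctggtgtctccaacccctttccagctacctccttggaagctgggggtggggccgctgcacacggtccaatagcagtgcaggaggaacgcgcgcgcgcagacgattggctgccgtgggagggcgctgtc
Ren1: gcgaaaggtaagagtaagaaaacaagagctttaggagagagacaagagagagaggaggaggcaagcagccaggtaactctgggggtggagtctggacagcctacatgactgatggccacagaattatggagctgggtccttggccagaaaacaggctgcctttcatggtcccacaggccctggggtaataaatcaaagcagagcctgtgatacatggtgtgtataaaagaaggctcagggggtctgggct
In Hspa5 the ERSE lay 65 to 47 bases before the RefSeq start. Hsp90b1 held it at 212 to 194 bases before the start and, on the other strand, at 107 to 89. These letters were not found in the windows of Sdf2l1 and Ren1. The GENCODE positions of Hspa5, Hsp90b1 and Ren1 begin inside these windows, so the distances hold for the RefSeq starts only. The ERSE of Hspa5 lies inside the gene as GENCODE places it.

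Manf (chromosome 9, 106838312 to 106891979, minus strand) encodes a secreted factor that is retained in the ER and released under ER stress. It had 307, 300 and 344 TPM in left and 81.1, 93.9 and 113 TPM in right kidneys of the coarctation mice. Sham mice had 165 and 146 TPM in left and 168 and 156 TPM in right kidneys. After coarctation the left kidneys were the 3 highest libraries and the right kidneys the 3 lowest, with all 4 sham libraries between them. The side changes were -2.01, -1.83 and -1.84 (mean -1.89 ± 0.10, SD, n = 3) against -0.06 and 0.09 (mean 0.02 ± 0.11, SD, n = 2). The difference was -1.91 (SE 0.26, 3.76-fold; adjusted p = 0.347 in edgeR), and it stayed between -1.99 and -1.78 under every setting tried.

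Hspa5 (chromosome 2, 34771970 to 34777547, plus strand) encodes BiP, the main Hsp70 chaperone of the ER. It had 150, 224 and 245 TPM in left and 64.0, 93.8 and 67.0 TPM in right kidneys after coarctation, and 128 and 156 TPM in left and 110 and 157 TPM in right kidneys after sham surgery. Again every coarctation right kidney was below every sham library, and the difference was -1.46 (SE 0.28, 2.76-fold; adjusted p = 0.601 in edgeR). Sdf2l1, a partner of BiP, had 49.7, 76.7 and 56.8 TPM in left and 9.53, 4.59 and 4.46 TPM in right kidneys after coarctation, and 14.9 and 21.4 TPM in left and 11.7 and 25.8 TPM in right kidneys after sham surgery. As for Manf, the sham libraries lay below every left and above every right kidney after coarctation, and the difference of -3.45 (SE 0.68, 10.9-fold; adjusted p = 0.601 in edgeR) was the largest in the list.

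Hsp90b1, the Hsp90 of the ER, had 214, 209 and 182 TPM in left and 125, 119 and 114 TPM in right kidneys after coarctation, against 110 and 167 TPM in left and 127 and 148 TPM in right kidneys after sham surgery. Its side changes after coarctation agreed closely among mice (-0.87, -0.96 and -0.90), and the difference was -0.89 (SE 0.20). Fkbp2, an ER prolyl isomerase, had a difference of -1.01 (SE 0.23). Calr and Canx, the lectin chaperones that hold glycoproteins, had differences of -1.15 (SE 0.27) and -0.70 (SE 0.26). Dnajc3, a co-chaperone of BiP, had one of -0.73 (SE 0.29). These 5 genes all had an adjusted p of 1 in edgeR, and in none did the side changes of the groups overlap.

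The ERSE was in 7 of the 20 chaperone genes with a RefSeq promoter (35.0%), namely Hspa5, Hsp90b1, Dnajc3, Creld2, Calr, Canx and Pdia6. It was also in 2 of 25 genes of the unfolded protein response, Syvn1 and Derl3, and in 0 of 35 genes of the secretory pathway. The 9 genes in the first pair of lists all had a negative difference (median -0.73). In 6 of them the coarctation side changes lay entirely below the sham ones, against 10.1% of all tested genes. These 2 lists were negative in 88.5% and 81.5% of all their members, and members without the element were not compared. Among the other 11 tested genes with the element, 4 had a negative difference (median 0.36), with 1 apart below and 2 apart above. A related element, the ERSE-II (ATTGG, 1 base of any kind, CCACG), was in 0 of the 20 chaperone genes. It was in 1 of the 25 genes of the unfolded protein response, Herpud1 (difference 0.02, SE 0.41). The matches are a description of the letters in these windows, and no binding was measured.

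The sensors and effectors of the unfolded protein response were lower in 22 of 27 tested members (81.5%, median -0.49). In 6 members (22.2%, against 10.1% of all tested genes) the coarctation side changes lay entirely below. In 1 member (3.7%, against 10.3%) they lay entirely above. The largest difference was that of Derl3, part of the machinery that removes misfolded proteins, with 1.84, 11.7 and 8.15 TPM in left and 0.0293, 0.229 and 0 TPM in right kidneys after coarctation. Sham mice had 1.25 and 0.117 TPM in left and 0.657 and 0.0271 TPM in right kidneys. The fitted difference of -5.48 (SE 1.69) rests on coarctation right kidneys with at most 9 estimated counts, and the size depends on the prior count. Wfs1, an ER membrane protein that restrains this response, had a difference of -2.23 (SE 0.98). Members of the opposite sign included a sensor protease. Mbtps1, the Golgi protease that activates the sensor ATF6, had a difference of 1.53 (SE 0.51), with side changes entirely above those of sham mice, and Ppp1r15a, which restores translation after stress, had one of 0.60 (SE 0.27).

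Genes that carry proteins into and through the secretory pathway had small differences that were nearly all in 1 direction. Of 43 members 40 were negative (93.0%, median -0.44), and in 17 (39.5%) the coarctation side changes lay entirely below the sham ones, against 10.1% of all genes. Srpr, the receptor for the signal recognition particle that docks ribosomes at the ER, had 72.7, 60.6 and 47.4 TPM in left and 35.2, 34.3 and 31.3 TPM in right kidneys after coarctation. In sham mice it had 50.8 and 51.8 TPM in left and 59.0 and 57.8 TPM in right kidneys. Each coarctation mouse was lower on the right and each sham mouse higher, and the difference was -1.13 (SE 0.33). Ostc, a subunit of the complex that attaches glycans, had a difference of -0.93 (SE 0.27), and Ssr4, a subunit of the translocon-associated complex, had one of -0.79 (SE 0.25). The exceptions were Stt3b (0.34, SE 0.28), Arf4 (0.02, SE 0.25) and Kdelr3 (0.48, SE 1.57).

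The direction of these 3 lists was the same under all 15 alternative settings. The median ran from -0.69 to -0.30 for the chaperones, from -0.63 to -0.32 for the sensors and effectors, and from -0.47 to -0.29 for the secretory pathway. The chaperones gave -0.47 without coarctation mouse 1 and -0.69 without sham mouse 1, and their fewest negative members were 18 of 26, without sham mouse 2. Within mice the median side change of the chaperones was -0.76, -0.68 and -0.64 after coarctation and -0.27 and 0.03 after sham surgery. That of the secretory pathway was -0.46, -0.47 and -0.29 after coarctation and 0.13 and 0.02 after sham surgery. Members of 1 list are measured in the same libraries and are not replicates of the condition.

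Granule and lysosome genes divided evenly, with 11 of 21 members negative (median -0.01, range -0.10 to 0.14). Ctsb, cathepsin B, had a difference of -0.99 (SE 0.28), and the granule membrane gene Cd63 of -0.41 (SE 0.17). Sterol synthesis was negative in 15 of 24 members (median -0.20). Its median was -0.45 without sham mouse 1, -0.38 without coarctation mouse 1, and -0.07 and -0.05 without coarctation mice 2 and 3. Its genes Idi1, Ebp and Fdps had differences of -0.95 (SE 0.54), -0.72 (SE 0.42) and -0.70 (SE 0.43). None of these members passed.

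**Figure D2:**
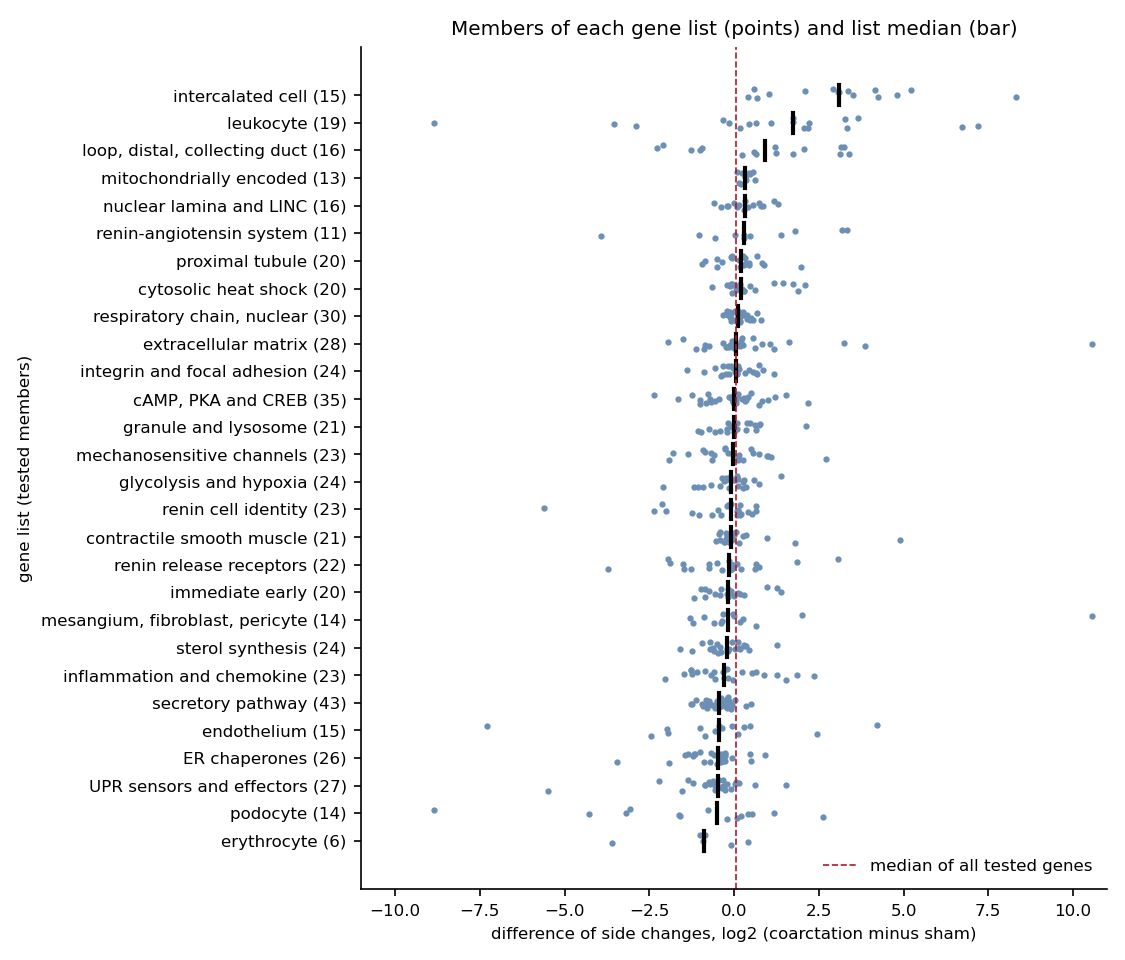
Difference of side changes (log2, coarctation minus sham) for every tested member of the 28 gene lists, with the number of members in parentheses, the list median as a bar and the median of all genes as a dashed line. The ER chaperone, UPR and secretory lists sit left of the line at -0.47, -0.49 and -0.44, and the intercalated cell list sits farthest right at 3.09.

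Among the signals that set renin release, receptors were negative in 15 of 22 members (median -0.14, range -0.22 to 0.02). Npr3, the clearance receptor for natriuretic peptides, had 6.43, 5.57 and 3.09 TPM in left and 1.02, 1.41 and 1.15 TPM in right kidneys after coarctation, and 3.57 and 5.26 TPM in left and 2.79 and 5.19 TPM in right kidneys after sham surgery. All 3 coarctation right kidneys were below every other library, and the difference was -1.95 (SE 0.50; adjusted p = 1 in edgeR). Adrb1, the beta-1 adrenergic receptor that drives renin release, had a difference of -1.51 (SE 0.68). The genes of cyclic AMP signalling divided into 18 negative and 17 positive members (median -0.001, range -0.17 to 0.12). Nr4a2, a transcription factor induced by cyclic AMP, had a difference of 1.53 (SE 0.36), with 9.16, 25.1 and 23.9 TPM in left and 16.6, 56.2 and 68.7 TPM in right kidneys after coarctation. In sham mice it had 23.9 and 38.3 TPM in left and 15.0 and 31.9 TPM in right kidneys, so that every coarctation mouse was higher on the right and every sham mouse lower. Pde4b and Pde3a, which break down cyclic AMP, went opposite ways at -0.996 (SE 0.35) and 0.82 (SE 0.29).

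Of the renin-angiotensin genes tested, 8 of 11 were positive (median 0.30, range 0.19 to 0.54). Agtr1a, the angiotensin receptor, had a difference of 0.47 (SE 0.27). Agt, which encodes angiotensinogen, was near the floor of the measurement, at 2.84 TPM or lower in every library. Of the mechanosensitive channels 12 of 23 were negative (median -0.03, range -0.22 to 0.16), among them Piezo2 at -1.36 (SE 0.60). Integrin and focal adhesion genes had a median of 0.05 (range -0.08 to 0.17). Of 16 genes of the nuclear lamina and its links to the cytoskeleton 11 were positive (median 0.31, range 0.13 to 0.52), the linker gene Syne1 at 0.79 (SE 0.36). Lmna, which encodes lamins A and C and has been studied as part of the pressure sensor, had a difference of -0.01 (SE 0.33), and its sign changed with the setting.

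Immediate early genes were negative in 13 of 20 members (median -0.19, and -0.07 without coarctation mouse 1, -0.29 without sham mouse 1 and -0.04 without sham mouse 2), with Fosb at -0.85 (SE 0.24), Klf2 at -0.75 (SE 0.22) and Zfp36 at -0.86 (SE 0.28). In each of these 3 genes the 3 coarctation mice were lower on the right and both sham mice higher. Socs3, a feedback inhibitor of cytokine signalling, had a difference of -1.27 (SE 0.42), while 15 of 23 inflammation genes were negative (median -0.30, and -0.06 without coarctation mouse 2 and -0.17 without sham mouse 2). Eno3, the muscle enolase, was among the 8 lower genes named by p. It had 34.1, 68.7 and 41.3 TPM in left and 9.32, 30.2 and 14.0 TPM in right kidneys after coarctation, and 39.4 and 115 TPM in left and 45.1 and 137 TPM in right kidneys after sham surgery, a difference of -1.89 (SE 0.34; adjusted p = 0.555 in edgeR). Glycolysis and hypoxia genes as a list had a median of -0.09 (range -0.15 to 0.03), with Gpi1, glucose phosphate isomerase, at -0.91 (SE 0.31).

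Among the 8 higher genes named by p, Spink8 had the smallest p, and Spink8 and Atp6v1g3 were in the list of intercalated cell markers. Spink8 (chromosome 9, 109812280 to 109826633, plus strand), a protease inhibitor gene, had 15.2, 7.85 and 4.58 TPM in left and 215, 60.1 and 112 TPM in right kidneys after coarctation. In sham mice it had 60.1 and 74.8 TPM in left and 38.1 and 24.2 TPM in right kidneys. The left kidneys of coarctation mice were the 3 lowest libraries. The side changes were 3.72, 2.77 and 4.35 in coarctation mice (mean 3.62 ± 0.80, SD, n = 3) and -0.74 and -1.62 in sham mice (mean -1.18 ± 0.62, SD, n = 2). They did not overlap, which the rule for genes named by p required. The difference was 4.81 (SE 0.58, 28.0-fold; adjusted p = 0.257 in edgeR). With the genes restricted to those with at least 10 counts in every library, Spink8 and Ren1 passed (adjusted p = 0.0441 each in edgeR, 11922 genes tested). Over all settings their adjusted p ran up to 1.

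All 15 listed markers of intercalated cells had a positive difference (median 3.09), and in 8 (53.3%) the side changes lay entirely above those of sham mice, against 10.3% of all genes. Spink8 was placed in this list with its value known, and the other 14 had a median of 3.07, with 7 apart. The list as a whole was also settled with earlier results of these data known, in which these cells had moved. Its shares are therefore a description. Atp6v1g3, a subunit of the proton pump, had 63.4, 24.3 and 8.78 TPM in left and 654, 75.5 and 101 TPM in right kidneys after coarctation, and 84.1 and 121 TPM in left and 108 and 61.5 TPM in right kidneys after sham surgery. Coarctation mice were higher on the right in 3 of 3 cases, sham mice in 1 of 2, and the difference was 3.05 (SE 0.61; adjusted p = 0.632 in edgeR). The pump subunits Atp6v0d2 and Atp6v1b1 had differences of 3.52 (SE 0.82) and 4.25 (SE 1.38). Slc26a4, the anion exchanger pendrin, had one of 5.23 (SE 1.32), the ammonia channel Rhbg of 4.16 (SE 1.13) and the water channel Aqp6 of 3.09 (SE 1.23). Hmx2, Slc4a9, Insrr and Rhcg had differences of 8.33 (SE 4.01), 3.37 (SE 2.57), 2.92 (SE 1.44) and 2.10 (SE 1.14). In Hmx2, Slc4a9 and Rhcg the groups overlapped, and coarctation mouse 2 was lower on the right (side changes -2.04, -2.68 and -0.82). Hmx2 had 0 estimated counts in the left kidneys of coarctation mice 1 and 3. Only 5 of the 15 members had at least 10 counts in every library.

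The remaining 4 members had the smallest differences. The transcription factor Foxi1 had a difference of 1.04 (SE 1.49), Dmrt2 of 0.68 (SE 1.59), the receptor Kit of 0.60 (SE 1.76) and the anion exchanger Slc4a1 of 0.40 (SE 1.26), and all 4 signs turned under at least 1 setting. Another 3 genes among the higher ones named by p were not in the list. Atp6v1c2, another proton pump subunit, had 7.85, 3.22 and 2.51 TPM in left and 45.8, 13.4 and 14.3 TPM in right kidneys after coarctation, against 11.5 and 12.3 TPM in left and 5.28 and 7.66 TPM in right kidneys after sham surgery (difference 3.16, SE 0.60; adjusted p = 0.599 in edgeR). Hepacam2, a cell adhesion gene, had a difference of 4.03 (SE 0.64; adjusted p = 0.395 in edgeR). Ckmt1, the mitochondrial creatine kinase, had one of 2.40 (SE 0.45; adjusted p = 0.599 in edgeR).

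The summed level of the 15 intercalated markers was 94.8, 40.4 and 16.5 TPM in left and 985, 155 and 254 TPM in right kidneys of coarctation mice 1, 2 and 3. In sham mice it was 174 and 248 TPM in left and 172 and 111 TPM in right kidneys. No member was at 0 in every library. Atp6v1g3 and Spink8 made up most of this sum in every library. In right kidneys after coarctation they had 654 and 215 TPM in mouse 1, 75.5 and 60.1 TPM in mouse 2, and 101 and 112 TPM in mouse 3. The sum was thus higher on the right in all 3 coarctation mice and in neither sham mouse. Of the right kidneys after coarctation 2 were above, and 1 was within, the sham span, while all 3 left kidneys were below it. Foxi1, the defining transcription factor, was between 0.0611 and 10.9 TPM. The summed ER chaperones went the other way, from 3209, 3616 and 3025 TPM in left to 1943, 2185 and 2121 TPM in right kidneys after coarctation, and from 2410 and 2647 to 2393 and 2613 TPM after sham surgery. The part of other cells in the differences of Ren1, the chaperones or the secretory genes was not tested.

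Markers of other cells moved less evenly. Those of the loop, distal tubule and collecting duct were positive in 11 of 16 members. Their median of 0.92 became 0.40 without coarctation mouse 1, 1.40 without coarctation mouse 2, 1.41 without sham mouse 1 and 1.58 without sham mouse 2. They had a summed level of 302, 209 and 131 TPM in left and 548, 148 and 237 TPM in right kidneys after coarctation and of 597 and 279 TPM in left and 282 and 128 TPM in right kidneys after sham surgery. Aqp2 and Aqp3, water channels of principal cells, had differences of 3.24 (SE 1.40) and 3.38 (SE 1.09), and in Aqp2 coarctation mouse 2 was lower on the right like both sham mice. Proximal tubule markers had a median of 0.21, with 12 of 20 positive. That sign turned without coarctation mouse 2 (-0.23, 14 of 20 negative) and with no replicate block (-0.24), and the median was 0.60 without coarctation mouse 1, 0.37 without coarctation mouse 3 and 0.04 without sham mouse 2. Podocyte markers were negative in 8 of 14 members (median -0.50, and -0.27, -0.32 and -0.85 without coarctation mice 1, 2 and 3). Endothelial markers were negative in 10 of 15 (median -0.45, and -0.27 without coarctation mouse 2), but without sham mouse 1 the median was 0.09, with 8 of 15 positive. Markers of mesangium, fibroblasts and pericytes were negative in 8 of 14 (median -0.19), a sign that turned without coarctation mouse 2 (0.21) or sham mouse 1 (0.15).

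Leukocyte markers were positive in 14 of 19 tested members (median 1.73), but only 2 members (10.5%) lay apart, which is the background share. The median was 0.66 without sham mouse 1 and 0.30 with no replicate block, where 11 of 19 were positive. Their summed level was 106, 542 and 81.9 TPM in left and 1024, 462 and 346 TPM in right kidneys after coarctation, and 470 and 147 TPM in left and 132 and 396 TPM in right kidneys after sham surgery. One sham mouse was higher on the right and the other lower, as was coarctation mouse 2, so the groups overlapped. The class II genes Cd74 and H2-Aa had differences of 2.05 (SE 0.85) and 3.32 (SE 1.43). Hemoglobin genes spread more within the coarctation mice than between groups. Hba-a2 had side changes of -4.08, -0.11 and 1.69 after coarctation and -0.24 and 1.07 after sham surgery (difference -1.02, SE 1.43), and its near-identical copy Hba-a1 cannot be counted separately with certainty.

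**Figure D3:**
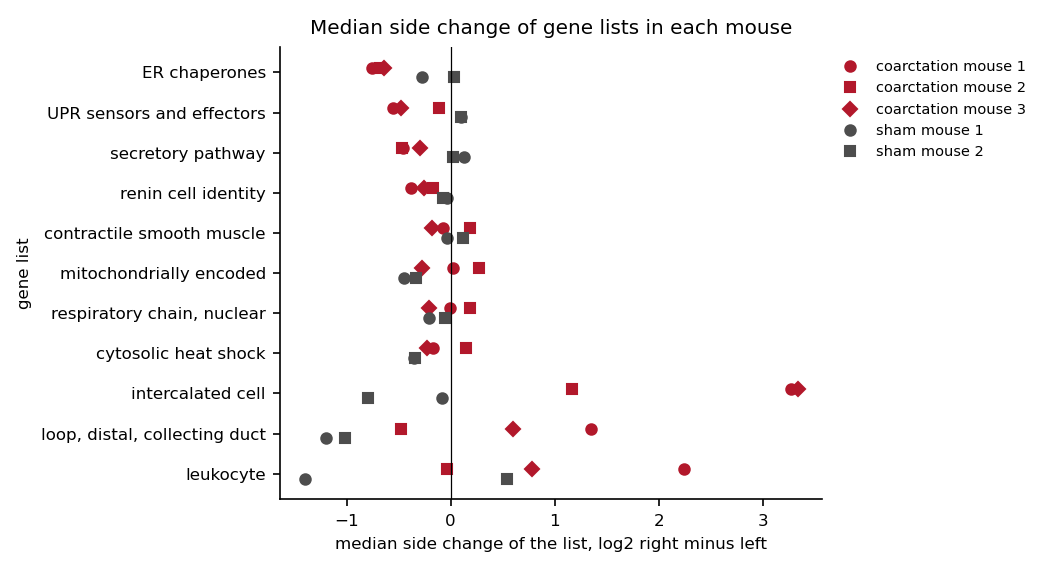
Median side change (log2 right minus left) of 11 gene lists in each mouse, coarctation in red and sham in grey. For ER chaperones, UPR, secretory and intercalated cell lists the 3 red points lie to 1 side of both grey points. So do those of the renin cell identity, mitochondrially encoded, cytosolic heat shock, and loop, distal and collecting duct lists. In the contractile, respiratory chain and leukocyte lists the groups overlap, and in the leukocyte list sham mouse 2 lies among the red points.

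A difference of side changes can come from either group. Among the 782 genes at an unadjusted p under 0.05, the mean side change was larger in size after coarctation in 409 and after sham surgery in 373, and the signs were opposite in 703 (89.9%, against 48.2% of all tested genes). Choosing genes by the difference favours opposite signs, so this share is a description. Of the 100 genes of smallest p, the side change was larger after coarctation in 59 and after sham surgery in 41, with median sizes of 1.45 and 1.13. For Ren1, Manf, Hspa5, Sdf2l1, Aldh7a1 and Akr1b7 the mean sham side change was between -0.21 and 0.02. On the means, most of the difference thus lay in the coarctation mice. Single sham mice could differ between sides, with side changes of -0.57 and 0.15 for Ren1 and -0.44 and 0.25 for Akr1b7.

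For other genes named by p the sham kidneys carried most of the difference. Tspan1, a tetraspanin of epithelial cells, had 16.2 and 20.5 TPM in left and 1.87 and 2.43 TPM in right kidneys of sham mice, and 20.3, 6.54 and 0.977 TPM in left and 29.2, 10.0 and 3.16 TPM in right kidneys of coarctation mice. Its difference of 3.91 (SE 0.54, 15.0-fold; adjusted p = 0.347 in edgeR) was made of a mean side change of -3.12 ± 0.09 (SD, n = 2) after sham surgery and 0.78 ± 0.57 (SD, n = 3) after coarctation. R3hcc1l had 2.24 and 2.20 TPM in left and 15.0 and 10.0 TPM in right kidneys of sham mice, against 7.38, 5.44 and 9.58 TPM in left and 5.53, 2.29 and 3.93 TPM in right kidneys of coarctation mice. The sham mice were higher on the right by 2.41 ± 0.32 (SD, n = 2) on the log2 scale, and the difference was -3.57 (SE 0.54; adjusted p = 0.385 in edgeR). With only 2 sham mice, the spread of these side changes is poorly known.

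Among heat shock genes of the cytosol, Hspa1b was of this kind. Hspa1b, an inducible Hsp70, had 130 and 195 TPM in left and 48.6 and 54.0 TPM in right kidneys of sham mice, and 114, 150 and 95.2 TPM in left and 93.9, 228 and 159 TPM in right kidneys of coarctation mice. The difference was 1.87 (SE 0.32; adjusted p = 0.537 in edgeR), and both sham right kidneys were the lowest of all libraries. Its near-identical copy Hspa1a had a difference of 1.17 (SE 0.34), and how reads were divided between these 2 genes is uncertain. Dnajb1, a co-chaperone of Hsp70, had one of 1.75 (SE 0.64). Of the 20 genes of this list 13 were positive (median 0.20, and 0.11 without coarctation mouse 1 and 0.42 without coarctation mouse 3). The side changes of 4 (20.0%, against 10.3% of all tested genes) lay entirely above the sham ones. The median within mice was -0.17, 0.14 and -0.23 after coarctation and -0.349 and -0.345 after sham surgery.

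Transcripts of the mitochondrial genome were positive in 13 of 13 members (median 0.32). The side changes of 4 (30.8%, against 10.3% of all tested genes) lay entirely above the sham ones. The median within mice was 0.02, 0.27 and -0.27 after coarctation and -0.45 and -0.33 after sham surgery, so that the larger part was in sham mice. mt-Co3, a subunit of cytochrome c oxidase, had 28257 and 19435 TPM in left and 19605 and 13325 TPM in right kidneys of sham mice (difference 0.48, SE 0.11), and mt-Co1 had a difference of 0.56 (SE 0.16). Nuclear genes of the respiratory chain were positive in 21 of 30 members (median 0.12, range 0.03 to 0.24), with Uqcrc1 at 0.80 (SE 0.31). Cox7a1, a muscle form of an oxidase subunit named by p, had 271, 87.0 and 97.5 TPM in left and 707, 210 and 282 TPM in right kidneys after coarctation and 429 and 228 TPM in left and 247 and 180 TPM in right kidneys after sham surgery. Its difference was 1.84 (SE 0.35; adjusted p = 0.599 in edgeR), with side changes of 1.29, 1.11 and 1.30 against -0.88 and -0.33.

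**Figure D4:**
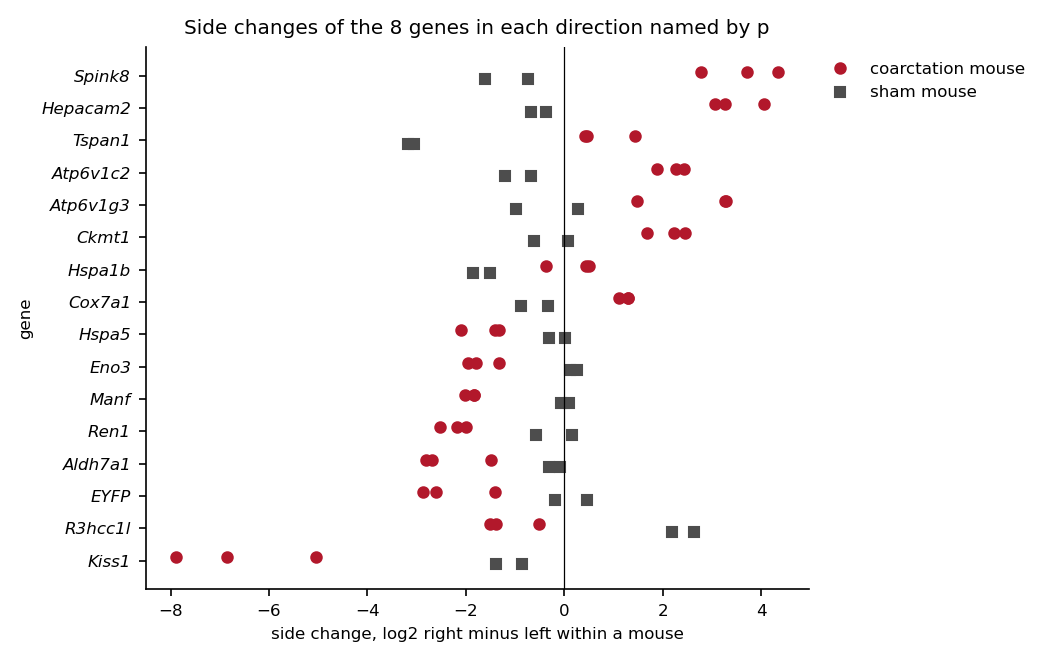
Side change (log2 right minus left) in each mouse for the 8 genes with a positive and the 8 with a negative difference that were named by smallest p, coarctation as red circles and sham as grey squares. Those of Ren1 and Manf are large in the coarctation mice, with mean sham side changes of -0.21 and 0.02. Tspan1, Hspa1b and R3hcc1l have mean sham side changes of -3.12, -1.67 and 2.41.

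For Ren1, Manf and Spink8 the size of the difference moved less with the analysis than the call did. Ren1 ran from -2.38 to -1.66, Manf from -1.99 to -1.78 and Spink8 from 4.37 to 5.36 over 15 alternatives. Other named genes moved more, such as Vtn from 3.79 to 12.62, Hmx2 from 2.69 to 13.57 and Slc26a4 from 2.97 to 7.06. The sign of some turned. The intercalated median ran from 1.58, on log2(TPM + 1) where low levels are compressed, to 3.86 without coarctation mouse 2, and was 2.73 without coarctation mouse 1 and 3.52 without sham mouse 1.

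**Figure D5:**
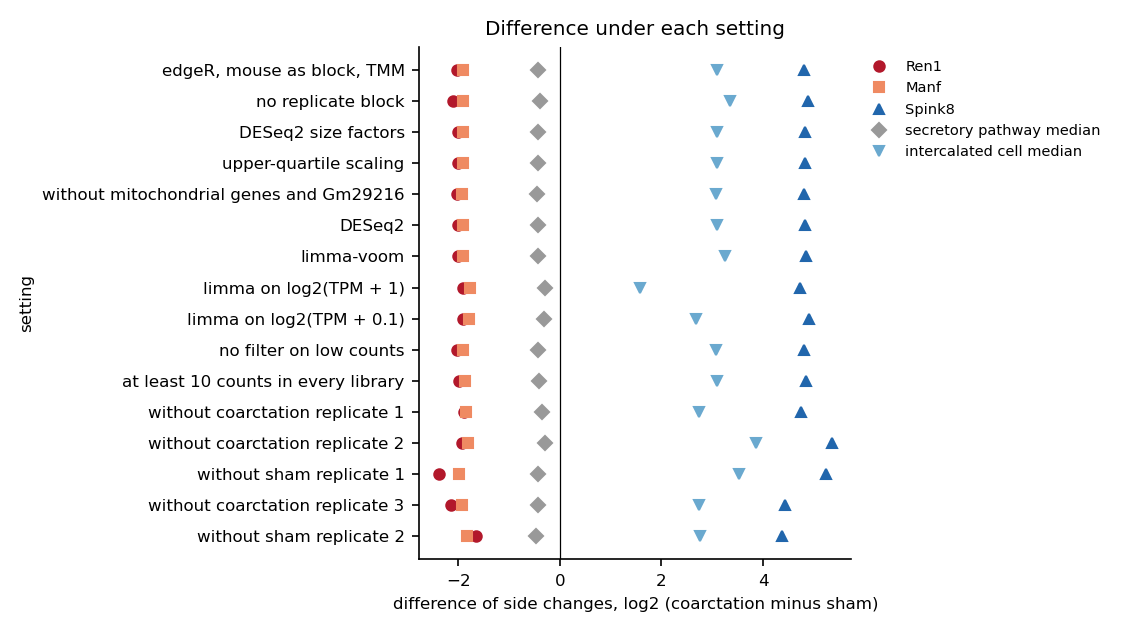
Difference of side changes (log2) of Ren1, Manf and Spink8 and the median difference of 2 gene lists under the reported fit (top) and 15 alternatives. Ren1 and Manf stay between -2.38 and -1.66, and Spink8 between 4.37 and 5.36.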

How the data were processed

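RNA-seq was done on sorted YFP-positive cells of each kidney (10 libraries, 5 mice). The deposited table holds TPM per gene, which the authors computed per the file headers, and estimated counts, which per the file headers were made from TPM scaled by length and library size. FastQC and the GRCm38 (mm10) build were used per the submitters' processing notes, with versions, aligner and annotation not given in the sources used here. Depth was 20029817 to 32006229 estimated counts. Reads carry no molecular identifiers, and counts within a library do not give the spread between mice, which was estimated from the replicates.

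After rounding, the estimated counts were fitted in R 4.3.3 with edgeR 4.0.16 (filterByExpr on the 4 groups, leaving 18825 of 32648 genes; TMM; quasi-likelihood test). The design held 5 mouse terms, side, and side by coarctation, the term tested, with 3 residual degrees of freedom and a common dispersion of 0.32. p-values were adjusted by Benjamini-Hochberg over all tested genes, with 0.05 as the threshold. Side changes of single mice are from log2 CPM (prior count 2). Differences are the fitted coefficients and not differences of the means of these side changes. They part from those at low counts (10.54 against 8.44 for Vtn). Each SE is the size of the coefficient divided by the square root of the F statistic of the quasi-likelihood test. The script was tested on simulated data. The kidneys were paired because the labels give both the same mouse number. Deviations from the group means correlated between the kidneys of a mouse at 0.127, 0.05 and 0.031 in coarctation mice 1, 2 and 3 and at 0.398 in the sham mice. With 2 sham mice the deviations mirror each other, so both have the same value by construction and it counts as 1 value.

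The members of the 28 gene lists and the choice of named genes were settled with earlier results of these data known. The rule named 8 fixed genes, 8 genes per direction with the smallest p (mean log2 CPM 3 or higher, non-overlapping groups, no predicted genes), the 3 members of smallest p of each list (8 for ER chaperones) and all intercalated markers. Genes outside it, such as Crip1, Gja5 and the exceptions of each list, were named after their values were seen. Some genes that the rule selects are not reported here, although counts and medians of lists include them. Positions are from GENCODE vM21, for 110 of 112 genes. Promoters are from RefSeq (GRCm38.p6). Alternatives were other scalings, filters, no replicate block, DESeq2 1.42.0, limma 3.58.1 (voom, and log2 of TPM plus 1 or 0.1), and leaving out each mouse.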

Additional observations from a re-analysis of the deposited data

How the results depend on the processing

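The design leaves 3 residual degrees of freedom and has 2 sham mice. No replicate block gave 0 genes higher and 0 lower (smallest adjusted p 0.391), as did limma-voom, both TPM fits and every scaling. DESeq2 called 62 genes higher and 53 lower; the cause was not tested. Without a filter on low counts edgeR called 57 higher and 41 lower among 31370 genes, in a fit whose prior degrees of freedom were infinite (5.37 with the filter), so that each gene's own spread had no weight. With at least 10 counts in every library 1 gene was higher (Spink8) and 1 lower (Ren1), among fewer genes tested. Leaving out each mouse gave 0 to 0 genes higher and 0 to 2 lower; the 2, without coarctation mouse 3, were Aldh7a1 and Gm10123. Of the named genes, 9 turned sign in at least 1 setting; the cause was not tested. Lmna was 0.002 with DESeq2 or its size factors, 0.004 with upper-quartile scaling, 0.11 on both TPM scales and 0.027 with 10 counts in every library. No replicate block gave Dmrt2 -0.15, Slc4a1 -0.22 and Hba-a2 0.074, and log2(TPM + 1) gave Slc4a1 -0.33. With a mouse left out the ranges were -0.033 to 0.178 for Acta2, -0.457 to 0.027 for Myh11, -0.34 to 0.33 for Lmna, -1.10 to 2.90 for Foxi1, -1.09 to 2.76 for Dmrt2, -0.87 to 2.24 for Kit, -0.44 to 1.21 for Slc4a1, -2.49 to 0.37 for Hba-a2 and -2.19 to 0.34 for Hba-a1. The median of all genes moved from 0.05 to 0.18 without coarctation mouse 2.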

Other observations

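Some large differences belonged to genes near the floor, where the fitted size depends on the prior count. Vtn, which encodes vitronectin, had 0, 2 and 0 estimated counts in left and 159, 437 and 208 in right kidneys of coarctation mice 1, 2 and 3, and 92 and 29 in left and 14 and 11 in right kidneys of sham mice 1 and 2. The coarctation right kidneys were the 3 highest libraries and the left kidneys the 3 lowest, and its fitted difference was 10.54 (SE 1.56; adjusted p = 0.385 in edgeR). Tek, the angiopoietin receptor of endothelium, had 3, 8 and 46 counts in left and 36, 216 and 117 in right kidneys after coarctation, against 196 and 25 in left and 170 and 4 in right kidneys after sham surgery. Cldn5, a tight junction gene of endothelium, went the other way, with 4, 143 and 6 counts in left and 1, 2 and 2 in right kidneys after coarctation and 1 and 5 in left and 60 and 23 in right kidneys after sham surgery. These 2 endothelial genes thus had side changes apart from the sham ones in opposite directions. S100a9, a neutrophil gene, had 315 and 16 counts in the left kidneys of coarctation mice 2 and 3 and at most 2 in every other library.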
